A study of Mus musculus with 23 samples.

Results

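The unfolded protein response and the ATF4 arm of the integrated stress response were followed here through 10 genes in mouse quadriceps, taken by name. They are Atf4, Ddit3, Xbp1, Trib3, Asns, Chac1, Hspa5, Hsp90b1, Pdia4 and Dnajb9, 10 of the 55573 genes in the table of counts, and all 10 were among the 13049 genes tested. RNA of the quadriceps, the thigh muscle, was sequenced from C57BL/6J mice aged 8 to 10 weeks, with 6 vehicle-treated females, 5 corticosterone-treated females, 6 vehicle-treated males and 6 corticosterone-treated males. Treated mice carried a subcutaneous slow-release implant for 14 days, made of cholesterol (50 mg) and of corticosterone (50 mg), the main glucocorticoid of mice, while the implant of vehicle-treated mice held cholesterol alone. The labels name no transgene, and all mice were fasted for 5 hours before the muscle was taken. Mice are named by sex and number, with odd numbers for vehicle and even numbers for corticosterone.

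When unfolded proteins gather in the endoplasmic reticulum (ER), the sensors PERK, IRE1 and ATF6 are engaged. PERK and the other eIF2 kinases slow general translation and favour translation of Atf4 mRNA, IRE1 splices Xbp1 mRNA, and ATF6 is cleaved to a transcription factor. ATF4 drives genes of amino acid synthesis and stress, whereas spliced XBP1 and ATF6 drive chaperones, folding enzymes and degradation factors of the ER. Counts per gene show the amount of Atf4 and Xbp1 mRNA, but neither the translation of the first nor the splicing of the second.

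The promoters of the 10 genes were searched, in RefSeq windows on GRCm38.p6 that run from 250 bases before the start of a gene to 50 bases after it. The ER stress response element (ERSE), read as CCAAT, any 9 bases and CCACG on either strand, was held by 0.119% of 32851 windows, among them those of Hspa5 and Hsp90b1. The C/EBP-ATF composite element (CARE), the site class to which ATF4 binds and read here as TGATG, any 1 base and AA, was held by 3.97% of windows, among them those of Asns, Chac1 and Trib3. The 4 promoters with such a match before the start are shown 5′ to 3′ on the strand of the gene, with the matched bases in capitals, because they carry the recognition letters of both arms of the response.
Hspa5 (chr2:34771840-34772089, plus strand): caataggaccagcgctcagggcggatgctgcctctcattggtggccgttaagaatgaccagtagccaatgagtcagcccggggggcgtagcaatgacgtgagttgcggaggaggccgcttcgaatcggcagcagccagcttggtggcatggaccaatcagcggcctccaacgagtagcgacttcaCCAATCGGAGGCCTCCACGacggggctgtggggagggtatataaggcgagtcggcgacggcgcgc
Hsp90b1 (chr10:86705445-86705694, minus strand): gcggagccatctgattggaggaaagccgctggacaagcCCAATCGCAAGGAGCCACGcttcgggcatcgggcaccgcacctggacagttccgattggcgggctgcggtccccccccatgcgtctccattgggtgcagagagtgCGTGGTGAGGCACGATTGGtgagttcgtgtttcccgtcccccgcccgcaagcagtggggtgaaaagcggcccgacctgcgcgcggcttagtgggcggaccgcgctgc
Asns (chr6:7693210-7693459, minus strand): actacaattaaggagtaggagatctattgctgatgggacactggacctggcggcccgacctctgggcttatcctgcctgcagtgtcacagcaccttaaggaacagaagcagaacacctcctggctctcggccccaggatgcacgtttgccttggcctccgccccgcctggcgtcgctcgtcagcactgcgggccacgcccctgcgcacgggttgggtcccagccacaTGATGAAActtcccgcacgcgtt
Chac1 (chr2:119350992-119351241, plus strand): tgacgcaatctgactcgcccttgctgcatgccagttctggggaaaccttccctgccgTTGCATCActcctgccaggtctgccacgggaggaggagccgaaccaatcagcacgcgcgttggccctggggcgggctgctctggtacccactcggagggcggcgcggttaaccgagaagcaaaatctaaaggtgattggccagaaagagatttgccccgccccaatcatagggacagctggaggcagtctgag
The Hspa5 promoter held 1 exact match to the ERSE as read here and the Hsp90b1 promoter held 2, of which the one nearer to the start lay on the opposite strand. Sites that differ from these letters were not counted for any element. In Chac1 the CARE was also on the opposite strand, and in Trib3 the match lay after the start, so that its promoter is not shown. None of the 10 windows held the unfolded protein response element TGACGTGG (0.676% of windows), ERSE-II, read as ATTGG, any 1 base and CCACG (0.0365%), or a glucocorticoid response element read as AGAACA, any 3 bases and TGTTCT (0.00913%). The windows of Atf4, Ddit3, Xbp1, Pdia4 and Dnajb9 held none of these letters.

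Gene counts per mouse were between 20904150 and 21984477, and 3 counts corresponded to at most 0.166 CPM, counts scaled to a fixed library total, below every value given here. Fkbp5, a direct glucocorticoid receptor target, rose in males (log2 fold change 3.36 ± 0.30 SE) and in females (3.05 ± 0.30 SE). Of the 4 glucocorticoid-induced genes Fkbp5, Tsc22d3, Zbtb16 and Per1, 4 rose in males and 1 in females, where 3 had an unadjusted p under 0.05. Their summed level in the treated female F4, 367 CPM, lay within the range of 182 to 372 CPM of vehicle-treated females, whereas the other treated females had 535 to 851 CPM. Muscle fibre markers summed to 67278 to 178620 CPM in every mouse, and B and plasma cell markers to at most 4.62 CPM. The libraries of F2, F6 and F10 stood apart, with 3496, 4618 and 4015 read pairs of low alignment quality against at most 1856 in any other mouse. They made up only 0.0142%, 0.0187% and 0.0163% of the read pairs of these mice, against at most 0.00754% in any other. Hepatocyte markers summed to over 1000 CPM in F6, F10, M8, M9 and M12. Counts without these mice are given where leaving them out changed a result.

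Per kilobase of merged exon, Atf4 had the highest mean level of the 10 genes in vehicle-treated females, with 71.0 ± 6.85 CPM per kb (SD, n = 6), and in vehicle-treated males, with 88.9 ± 3.37 CPM per kb (SD, n = 6). Chac1 and Hspa5 followed in both, and the ranges over mice of neighbours in this order overlapped from Atf4 down to Hspa5. Pdia4 and every gene ranked above it lay above the range of Ddit3, Asns and Trib3 in vehicle-treated mice of both sexes. Trib3 was lowest there, with 0.697 ± 0.294 CPM per kb in females and 0.653 ± 0.170 CPM per kb in males (SD, n = 6 each), and its range overlapped that of Asns. With corticosterone, Hspa5 had the highest mean in females, 73.5 ± 21.6 CPM per kb (SD, n = 5), and Chac1 in males, 128 ± 35.6 CPM per kb (SD, n = 6), and both overlapped the gene ranked next.

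**Figure D1:**
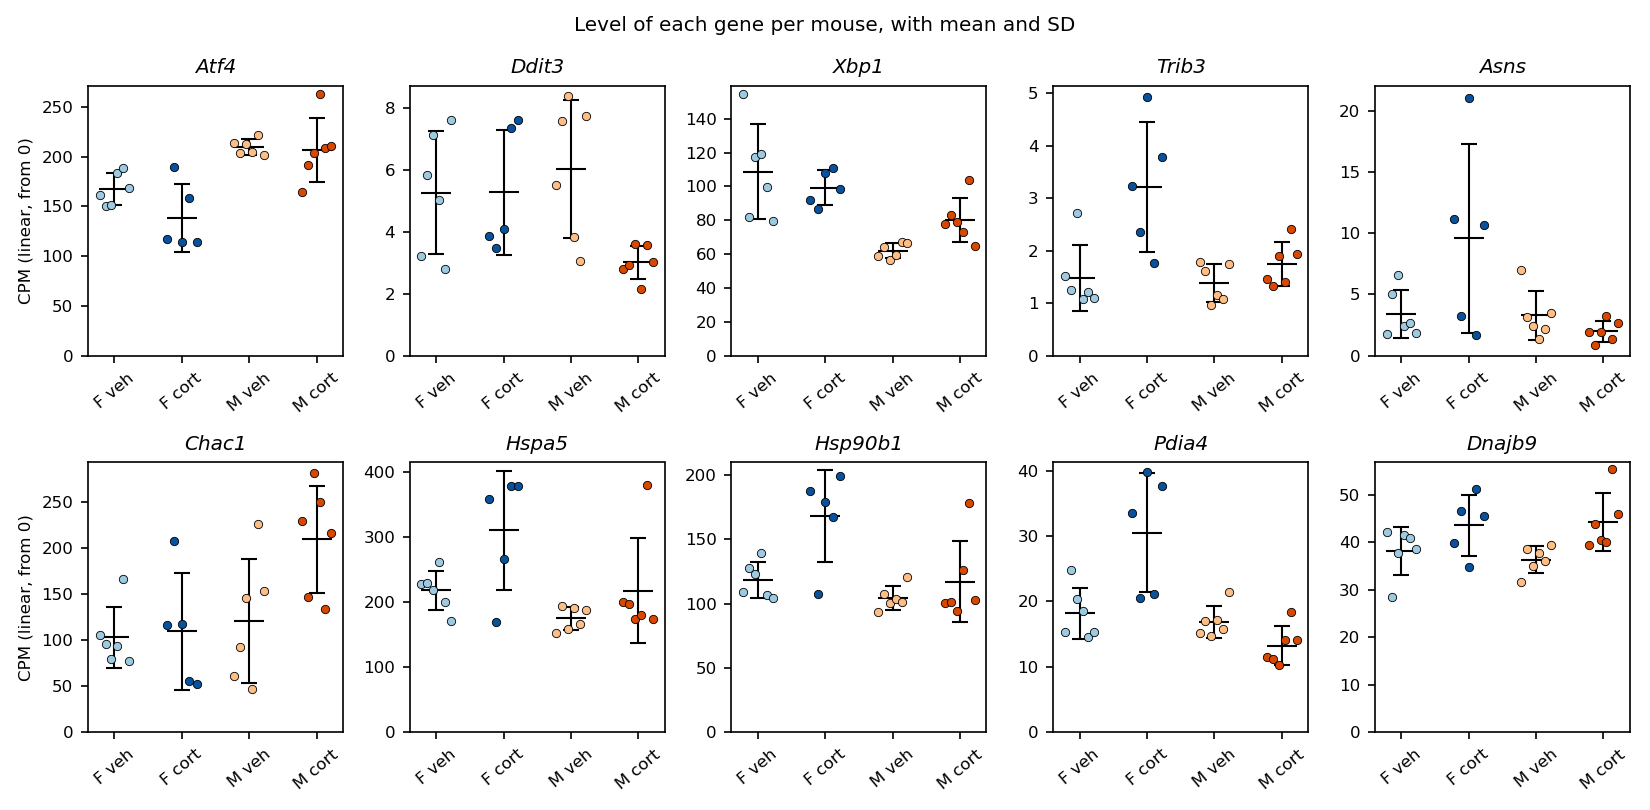
Level of each of the 10 genes in every mouse, in CPM on a linear axis from 0, by sex (F, M) and treatment (veh, cort). Points are mice, and lines with caps are the mean and SD of each group. Asns in corticosterone-treated females spans 1.72 to 21.01 CPM, and Ddit3 in corticosterone-treated males stays between 2.16 and 3.60 CPM.

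In males, corticosterone was accompanied by a lower level of Ddit3, which encodes the pro-apoptotic transcription factor CHOP, and by no called change of the other 9 genes. Of the 10 genes, 1 fell and 0 rose at an adjusted p under 0.01 by edgeR's quasi-likelihood test, where 13.1% of all tested genes fell and 13.2% rose. The median log2 fold change of the 10 genes was 0.23, beside -0.02 over all tested genes. In females, Trib3 and Pdia4 rose, so that 2 of the 10 genes were higher and 0 lower, where 7.40% of all tested genes rose and 6.0% fell. The median was 0.35 in females, beside 0.04 over all tested genes. Counts of 1 and 2 among 10 genes say little about the genes as a group beside these shares.

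**Figure D2:**
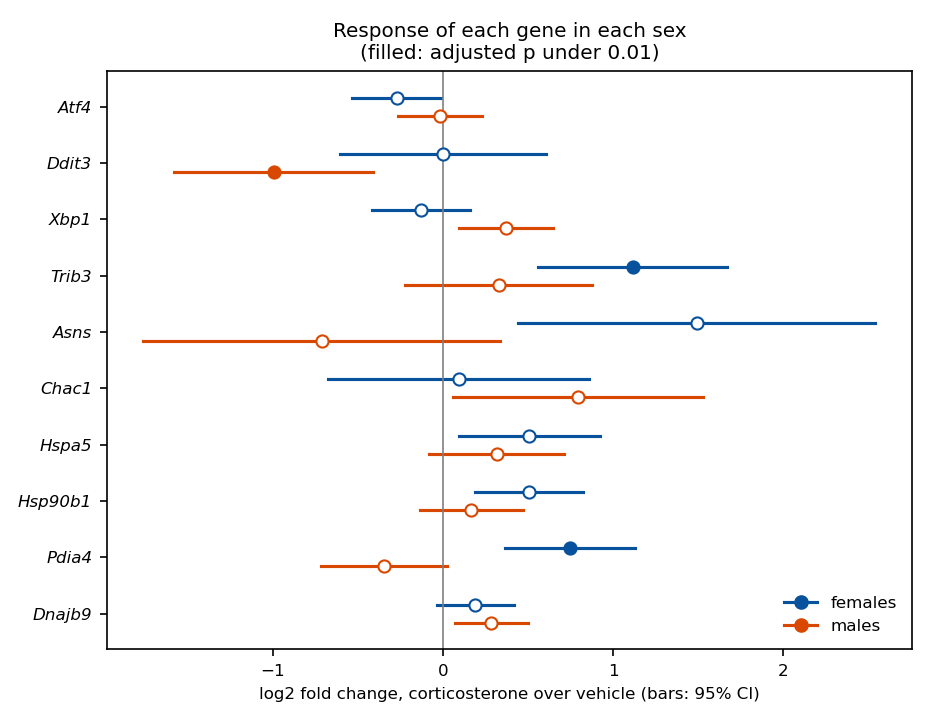
Log2 fold change of each gene with corticosterone over vehicle, in females (blue) and males (orange). Bars are 95% confidence intervals from edgeR, and filled points have an adjusted p under 0.01. Filled are Ddit3 in males at -0.997 and Trib3 and Pdia4 in females at 1.12 and 0.75.

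Of the regulators, Ddit3 (ENSMUSG00000025408, chr10:127290774-127296288) was at a lowest, median and highest level of 3.05, 6.54 and 8.39 CPM in vehicle-treated males. In corticosterone-treated males these levels were 2.16, 2.97 and 3.60 CPM. All 6 treated males lay below the vehicle mean, and the groups overlapped only through M9, the vehicle-treated male with the lowest level. It fell by 0.997 on the log2 scale (SE 0.28, adjusted p = 0.00786, edgeR). This call was lost in 10 of the fits that left out 1 mouse, those without M1, M3, M5, M11 or any of the 6 treated males, where the adjusted p was between 0.0101 and 0.0220. In females Ddit3 had no called change, with 2.79, 5.42 and 7.59 CPM as lowest, median and highest vehicle level and 3.86, 3.47, 4.08, 7.33 and 7.59 CPM in the order F2, F4, F6, F8, F10. Its log2 fold change there was 0.00 (SE 0.29, adjusted p = 0.9996, edgeR). A second gene model with the same symbol shares 105 exon bases with Ddit3 on the same strand, and reads there could not be counted for either.

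Atf4 (ENSMUSG00000042406, chr15:80255184-80257541), the transcription factor that gives the amino acid arm its name, had no called change with treatment in either sex by edgeR with all mice. In vehicle-treated females its lowest, median and highest levels were 151, 165 and 189 CPM, and in vehicle-treated males 201, 209 and 222 CPM, so that these groups did not overlap. In corticosterone-treated females it was at 117, 189, 114, 158 and 114 CPM in the order F2, F4, F6, F8, F10, and in treated males its lowest, median and highest levels were 165, 206 and 263 CPM. F2, F6 and F10 lay below every vehicle-treated female, whereas F4 lay above all of them. With corticosterone the log2 fold change was -0.27 in females (SE 0.13, adjusted p = 0.112) and -0.02 in males (SE 0.12, adjusted p = 0.917, edgeR). The fall in females passed by limma-voom (-0.41, adjusted p = 0.00653) and without F4 (-0.41, adjusted p = 0.00928, edgeR). Without F2, F6 and F10 the change was 0.0436.

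Xbp1 (ENSMUSG00000020484, chr11:5520659-5525893) encodes the transcription factor that IRE1 activates by splicing. Its lowest, median and highest levels were 56.4, 61.9 and 67.2 CPM in vehicle-treated males and 64.8, 78.5 and 104 CPM in corticosterone-treated males. Every treated male lay above the vehicle mean, with an overlap at M12. The log2 fold change of 0.37 (SE 0.13, adjusted p = 0.0313, edgeR) did not pass the threshold, and passed it when males were fitted alone (adjusted p = 0.00748). In females the vehicle levels were wider, from 79.6 over a median of 109 to 154 CPM, and treated females were at 91.8, 86.9, 108, 111 and 98.8 CPM in the order F2, F4, F6, F8, F10. All treated females lay within the vehicle range, with a log2 fold change of -0.13 (SE 0.14, adjusted p = 0.518, edgeR).

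Of the ATF4 targets, Trib3 (ENSMUSG00000032715, chr2:152337422-152344032), a pseudokinase that feeds back on ATF4 and CHOP, rose in females. Its lowest, median and highest levels were 1.09, 1.23 and 2.72 CPM in vehicle-treated females, and treated females were at 3.23, 2.36, 4.93, 1.77 and 3.78 CPM in the order F2, F4, F6, F8, F10. All 5 treated females lay above the vehicle mean, and F4 and F8 overlapped F5, the highest vehicle-treated female. The log2 fold change was 1.12 (SE 0.27, adjusted p = 0.00444, edgeR). It was lost in fits without F2, F6, F7, F9, F10 or F11 (adjusted p 0.0105 to 0.0257), and without F2, F6 and F10 together, which leaves 2 treated females, it was 0.46 (adjusted p = 0.506). In males the levels of 0.972 to 1.78 CPM with vehicle and 1.33 to 2.42 CPM with corticosterone overlapped, at a log2 fold change of 0.33 (SE 0.27, adjusted p = 0.342, edgeR).

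Asns (ENSMUSG00000029752, chr6:7675169-7693254) encodes asparagine synthetase, an ATF4 target whose promoter, like that of Chac1, is shown above. Its lowest, median and highest levels were 1.76, 2.57 and 6.60 CPM in vehicle-treated females, and treated females were at 11.1, 3.28, 21.01, 1.72 and 10.7 CPM in the order F2, F4, F6, F8, F10. F2, F6 and F10 lay above every vehicle-treated female, whereas F4 lay among them and F8 below them. The log2 fold change of 1.49 (SE 0.51, adjusted p = 0.0333, edgeR) did not pass the threshold, and without F2, F6 and F10 it was -0.46. It passed by limma-voom (1.71, adjusted p = 0.00588) and without F8 (1.76, adjusted p = 0.00682, edgeR). In males the lowest, median and highest levels were 1.39, 2.81 and 7.02 CPM with vehicle and 0.884, 1.92 and 3.22 CPM with corticosterone. All 6 treated males lay below the vehicle mean, at a log2 fold change of -0.71 (SE 0.51, adjusted p = 0.273, edgeR).

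Chac1, a glutathione-degrading enzyme induced by ATF4, varied widely between mice of a group, with a coefficient of variation of 27.8% to 57.8%. Vehicle-treated males were at 47.5, 119 and 227 CPM as lowest, median and highest level, and corticosterone-treated males at 134, 223 and 282 CPM. The log2 fold change was 0.79 in males (SE 0.35, adjusted p = 0.0797, edgeR), with all 6 treated males above the vehicle mean. In treated females Chac1 was at 117, 208, 118, 55.2 and 51.9 CPM in the order F2, F4, F6, F8, F10, on both sides of the vehicle range of 77.3 to 167 CPM. Its log2 fold change there was 0.09 (SE 0.37, adjusted p = 0.882, edgeR). The order of treated females thus differed between the ATF4 targets, with F4 highest for Chac1 and F6 highest for Trib3 and Asns.

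Of the ER chaperones, Pdia4 (ENSMUSG00000025823, chr6:47796141-47813430), a disulfide isomerase, rose in females. Its lowest, median and highest levels were 14.6, 17.0 and 24.8 CPM in vehicle-treated females, and treated females were at 33.5, 20.6, 39.8, 21.1 and 37.7 CPM in the order F2, F4, F6, F8, F10. F2, F6 and F10 lay above every vehicle-treated female, and F4 and F8 lay within the vehicle range above its mean. The log2 fold change was 0.75 (SE 0.18, adjusted p = 0.00505, edgeR). It was lost in fits without F1, F2, F6, F7, F9, F10 or F11 (adjusted p 0.0105 to 0.0262), and without F2, F6 and F10 together it was 0.18 (adjusted p = 0.697). In males Pdia4 was at 14.8, 16.4 and 21.5 CPM as lowest, median and highest level with vehicle and at 10.2, 12.8 and 18.4 CPM with corticosterone. That log2 fold change was -0.35 (SE 0.18, adjusted p = 0.125, edgeR).

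Hspa5 encodes BiP, the main ER chaperone of the HSP70 family, and Hsp90b1 encodes its HSP90 counterpart GRP94. Treated females had 359, 170, 267, 380 and 378 CPM of Hspa5, again from F2 to F10 by number, against a vehicle range of 172 to 262 CPM. Of Hsp90b1 they had 187, 108, 179, 167 and 199 CPM, against 104 to 139 CPM. For both genes 4 of 5 treated females lay above every vehicle-treated female, the exception being F4. The log2 fold changes of 0.51 (SE 0.20, adjusted p = 0.0647) for Hspa5 and 0.51 (SE 0.15, adjusted p = 0.0181) for Hsp90b1 did not pass the threshold, and both passed it without F4 (0.66, adjusted p = 0.00892, and 0.63, adjusted p = 0.00181, edgeR). With all mice, Hsp90b1 in females passed by DESeq2 (0.50, adjusted p = 0.00834) and by limma-voom (0.58, adjusted p = 0.00879). F4 was also the treated female whose summed level of the 4 glucocorticoid-induced genes lay within the vehicle range, and the part of this was not tested. In males, M10 had 381 CPM of Hspa5 and 178 CPM of Hsp90b1, while the other treated males had at most 200 CPM and 126 CPM, close to the vehicle ranges. In males the log2 fold changes were 0.32 (SE 0.19, adjusted p = 0.199) and 0.17 (SE 0.15, adjusted p = 0.385, edgeR).

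Dnajb9, an ER co-chaperone of BiP, had no called change in either sex. Its range in males was 31.5 to 39.4 CPM with vehicle and 39.4 to 55.4 CPM with corticosterone, so that the groups met at 39.4 CPM. This was a log2 fold change of 0.28 (SE 0.10, adjusted p = 0.0344, edgeR). In females it was 0.19 (SE 0.11, adjusted p = 0.208, edgeR), with treated levels of 39.7, 46.5, 34.8, 51.1 and 45.5 CPM in the order F2, F4, F6, F8, F10.

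**Figure D3:**
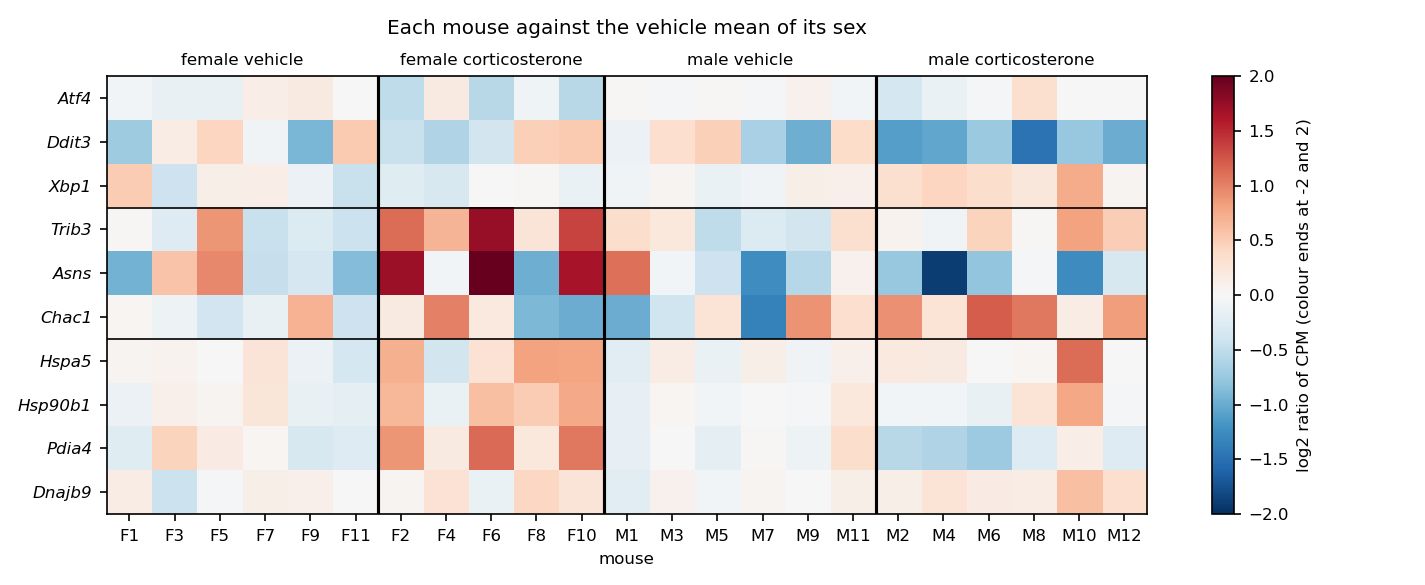
Log2 ratio of the CPM of each mouse to the vehicle mean of its sex, with genes in rows by role (regulators, ATF4 targets, ER chaperones) and mice in columns by group. Red is above and blue below the vehicle mean. F2, F6 and F10 are red for Trib3, Asns and Pdia4 and blue for Atf4, and M10 is red for Hspa5 and Hsp90b1.

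The 3 females that held the high levels of Trib3, Asns and Pdia4 were the libraries with the most read pairs of low alignment quality, at most 0.0187% of their read pairs. Fits without these 3 mice are given with the results, and the part of the read pairs themselves was not tested. Adipocyte markers summed to 3884, 6855 and 3088 CPM in F2, F6 and F10 and to 5360 and 465 CPM in F4 and F8, within the range of 882 to 7254 CPM of vehicle-treated females except for F8. Gene by gene, the 6 adipocyte markers had a median log2 fold change of 2.37 in females, where Lep rose by 6.79 and 4 had an unadjusted p under 0.05. Between treated sexes their median log2 difference was -2.97, with 6 of 6 lower in males, 0 called by edgeR and 6 at an unadjusted p under 0.05. Macrophage markers summed to 119, 172 and 193 CPM in F2, F6 and F10 and to 113 and 62.9 CPM in F4 and F8, against at most 110 CPM in vehicle-treated females. Of the 6 macrophage markers, 6 had a positive log2 fold change in females, with a median of 0.79, 0 called by edgeR and 3 at an unadjusted p under 0.05. Their median interaction was -1.28, and 6 of 6 were lower in treated males than in treated females, 4 of them called by edgeR. Of 5 erythrocyte markers, 4 rose in each sex, with a median log2 fold change of 1.30 in males and 1.40 in females. The part of adipocyte, macrophage and erythrocyte RNA in these results was not tested, beyond the fit with the adipocyte level as a covariate. Fibroblast markers summed to a median of 814 CPM in treated females against 1220 CPM with vehicle, and to 430 CPM in treated males against 1196 CPM. Without the 5 mice rich in hepatocyte markers, the log2 fold changes were -1.02 for Ddit3 in males (adjusted p = 0.0211), 0.70 for Trib3 in females (adjusted p = 0.156) and 0.44 for Pdia4 in females (adjusted p = 0.192, edgeR), and none of the 3 passed. In bulk muscle, fewer cells of a type and less RNA per cell cannot be told apart.

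The difference between the sexes in the response was tested as an interaction of sex and treatment. At an adjusted p under 0.01, 0 of the 10 genes passed by edgeR, where 0.368% of all tested genes were higher and 0.322% lower in males relative to females. At an unadjusted p under 0.05, 5 of the 10 passed, where 32.1% of all tested genes did. DESeq2 and limma-voom each called 1 of the 10, Pdia4, beside 896 and 693 genes called by these tools over all genes. For Pdia4 the response in males minus that in females was -1.10 (SE 0.26, adjusted p = 0.0167, edgeR), with a 95% interval from -1.63 to -0.57. For Asns it was -2.21 (SE 0.72, adjusted p = 0.0458, edgeR). Xbp1 and Ddit3 had differences of 0.50 (adjusted p = 0.0825) and -0.997 (adjusted p = 0.0964, edgeR). Without F2, F6 and F10 the difference was -0.52 for Pdia4 (adjusted p = 0.303) and -0.25 for Asns (adjusted p = 0.891, edgeR).

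Between vehicle-treated mice, Xbp1 was lower in males than in females, and no other gene of the 10 passed the test. At 1 lower and 0 higher of 10, this stands beside 0.268% lower and 0.690% higher of all tested genes. All 6 males, at 56.4 to 67.2 CPM, lay below all 6 females, at 79.6 to 154 CPM. The log2 difference was -0.81 (SE 0.13, adjusted p = 0.00087, edgeR), and it was -0.77 with an adjusted p of 0.0141 in a fit with the replicate numbers as a block. Atf4 was higher in every vehicle-treated male than in every vehicle-treated female, but its log2 difference of 0.32 (SE 0.12, adjusted p = 0.191, edgeR) did not pass. The sources used here do not state whether the sexes were processed together, so that sex and a batch of each sex cannot be told apart.

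Between corticosterone-treated mice, Atf4 was higher and Asns and Pdia4 were lower in males. Of the 10 genes, 1 was higher and 2 were lower, where 9.31% of all tested genes were higher and 14% lower. For Pdia4, all 6 males lay below all 5 females, at a log2 difference of -1.20 (SE 0.19, adjusted p = 0.00012, edgeR). For Asns the difference was -2.26 (SE 0.52, adjusted p = 0.00224), and all 6 males lay below the female mean. For Atf4 it was 0.58 (SE 0.13, adjusted p = 0.00143, edgeR), and all 6 males lay above the female mean. Without F2, F6 and F10 these differences were -0.63 (adjusted p = 0.0632), -0.30 (adjusted p = 0.781) and 0.27 (adjusted p = 0.211, edgeR), and 0 of the 10 genes passed. These comparisons share treated mice with those of corticosterone and vehicle.

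The other genes of the pathway were taken from lists by role, and their counts are read beside the shares of all tested genes, 13.2% up and 13.1% down in males and 7.40% up and 6.0% down in females. Of 28 targets of ATF4 and the integrated stress response, 25 were tested, of which 5 rose and 4 fell in males and 5 rose and 0 fell in females. Their median log2 fold change was 0.04 in males and 0.37 in females. Ddit4, an mTORC1 inhibitor that glucocorticoids also induce, rose in both sexes, from 17.4 ± 16.7 to 179 ± 57.2 CPM in males and from 17.5 ± 6.96 to 82.5 ± 53.0 CPM in females (SD). Stc2, a secreted glycoprotein, rose in males from 2.10 ± 0.61 to 16.5 ± 4.97 CPM (SD, log2 fold change 2.97 ± 0.32 SE). In females it was at 7.26 ± 1.95 CPM with vehicle and 9.36 ± 6.01 CPM with corticosterone (SD), a change of 0.37 ± 0.31 SE that did not pass. Every vehicle-treated male, at up to 3.10 CPM, lay below every vehicle-treated female, at 4.20 CPM or more. The interaction for Stc2 was 2.60 ± 0.44 SE (adjusted p = 0.00607, edgeR), and this difference in vehicle level enters it. Phgdh and Psat1, enzymes of serine synthesis, rose in females by 2.82 ± 0.70 SE and 1.89 ± 0.51 SE on the log2 scale and did not pass in males, at 0.07 and 0.51. In females, 0 of these targets passed without F2, F6 and F10 (6 at an unadjusted p under 0.05), 1 without the 5 mice rich in hepatocyte markers and 3 without a filter on low counts. The share of all tested genes at that unadjusted p was not taken without F2, F6 and F10, and was 38.6% with all mice.

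Of 20 genes of the ER folding machinery, 2 rose and 4 fell in males, with a median of -0.11, and 4 rose and 0 fell in females, with a median of 0.31, beside 13.2% up and 13.1% down of all tested genes in males and 7.40% and 6.0% in females. Calr, the ER lectin chaperone calreticulin, rose in both sexes, by 0.44 ± 0.10 SE in males and 0.51 ± 0.10 SE in females on the log2 scale. Pdia5, Txndc5 and Fkbp14, a pair of disulfide isomerase family members and a prolyl isomerase that acts on collagen, fell in males by 1.13, 0.75 and 0.61 on the log2 scale and did not pass in females, at -0.19, -0.19 and 0.02. Of 6 fibroblast markers, 4 fell beside them in males, with Col1a1 at -3.26 and Col3a1 at -3.96, and their part was not tested. Between treated mice, 10 of the 20 were lower in males and 0 higher, where 14% of all tested genes were lower and 9.31% higher. By edgeR 0 of the 20 passed there without F2, F6 and F10 (6 at an unadjusted p under 0.05), and 0 without the 5 mice rich in hepatocyte markers (7 at an unadjusted p under 0.05). With all mice, 47.9% of all tested genes had such an unadjusted p between treated sexes. That share was not taken in the fits without these mice, so the counts of 6 and 7 cannot be read against it.

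Of 20 genes of ER-associated degradation and translocation, 19 were tested. In males 1 rose and 1 fell, where 13.2% of all tested genes rose and 13.1% fell. In females 4 rose and 1 fell, where 7.40% of all tested genes rose and 6.0% fell. Edem1 and Edem2, lectins that pass misfolded glycoproteins to degradation, rose in females by 1.38 ± 0.27 SE and 0.61 ± 0.14 SE on the log2 scale. Os9, which acts in the same step, rose by 0.95 ± 0.17 SE, and all 5 treated females lay above all vehicle-treated females. Sec61b, a subunit of the translocation channel, fell by 0.74 (SE 0.19) on the log2 scale. Without F2, F6 and F10, 0 genes of either ER list passed in females by edgeR, with 4 of the folding machinery and 6 of degradation at an unadjusted p under 0.05. Without the 5 mice rich in hepatocyte markers 0 of either list passed there too, with 7 and 7 at an unadjusted p under 0.05. The share of all tested genes at this unadjusted p was 38.6% in females with all mice, and was not taken in the reduced fits. Without a filter on low counts, 1 gene of the folding machinery and 4 of degradation passed in females.

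Of 16 stress sensors and genes of the eIF2 switch, 5 rose and 0 fell in males, beside 13.2% and 13.1% of all tested genes. In females 0 passed in either direction, beside 7.40% and 6.0% of all tested genes. Without a filter on low counts, 3 genes rose in males. The eIF2 kinases Eif2ak1 and Eif2ak4, which respond to heme and amino acid lack, rose in males by 0.52 ± 0.09 SE and 0.37 ± 0.10 SE on the log2 scale. Eif2b5, a subunit of the exchange factor that eIF2 phosphorylation blocks, rose by 0.59 ± 0.08 SE, and Eif2s1, the phosphorylated subunit itself, by 0.39 ± 0.07 SE. Of 12 aminoacyl-tRNA synthetases, which charge tRNAs, 4 rose and 2 fell in males, beside 13.2% and 13.1% of all tested genes. In females 0 rose and 1 fell, beside 7.40% and 6.0%. The 6 calls in males became 1 without the 5 mice rich in hepatocyte markers, 3 with the adipocyte level as a covariate and 2 without a filter on low counts. The call in females was lost without F2, F6 and F10 and without the mice rich in hepatocyte markers. Yars fell in both sexes, by 0.36 in males and 0.46 in females on the log2 scale, and Cars fell in males by 0.46. Eprs and Iars rose in males by 0.46 ± 0.12 SE and 0.36 ± 0.10 SE. Of 8 mitochondrial chaperones and proteases, 0 passed in either sex, beside the same shares of all tested genes.

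**Figure D4:**
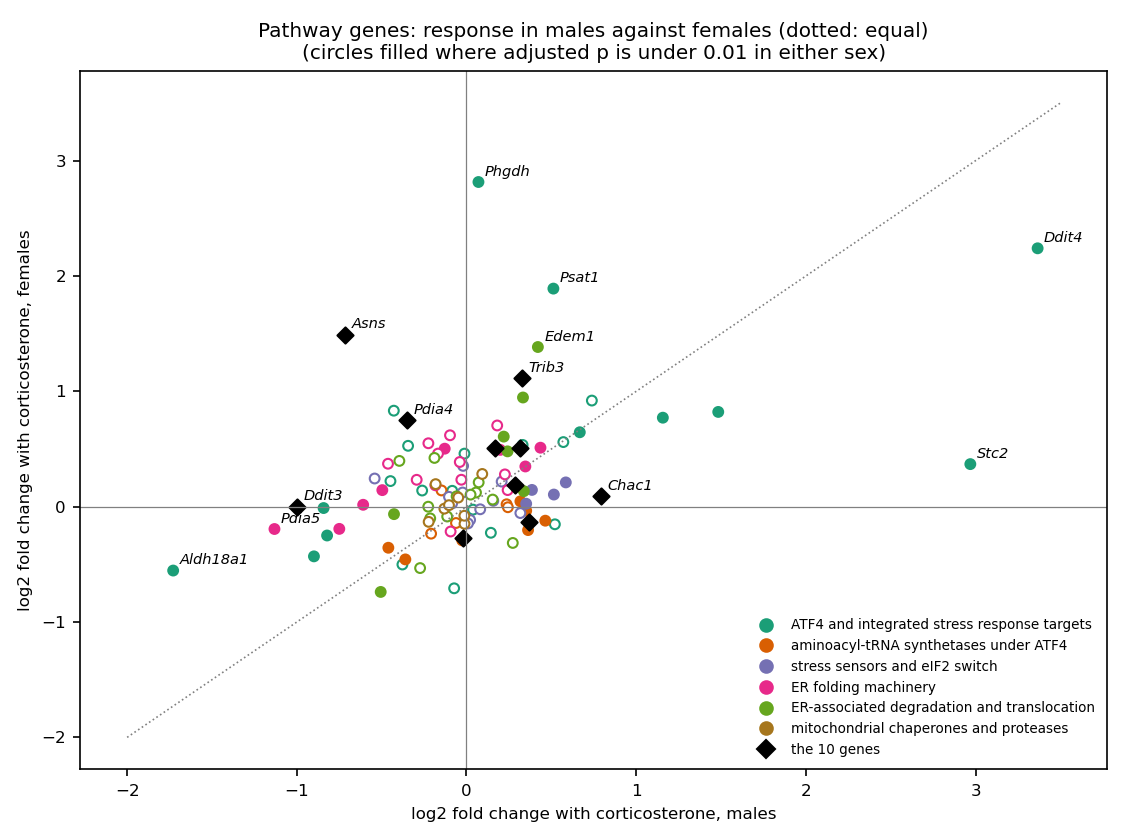
Log2 fold change with corticosterone in males (horizontal) against females (vertical) for the tested genes of the 6 pathway lists (circles) and the 10 genes (black diamonds). Circles are filled where the adjusted p is under 0.01 in either sex, and the dotted line marks equal change. Ddit4 lies high in both sexes, Stc2 in males, and Phgdh, Psat1 and Edem1 in females.

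Whether the genes of the response varied together among mice of 1 group was asked for 9 pairs of genes over 23 mice, on log2 CPM after the group means were removed. Hspa5 and Hsp90b1 varied together, with Pearson's r = 0.873 and Spearman's rho = 0.713 (adjusted p = 0.00324 and 0.0118 by permutation within groups). The relation was 0.869 in males, 0.879 in females and 0.676 without M10 and F4. Xbp1 and Hspa5 had r = 0.537 and rho = 0.575 (adjusted p = 0.0247 and 0.0287 by permutation), with 0.820 in males and 0.382 in females, and r = 0.582 without F1 and F11. Without M10, the mouse with the highest Hspa5 level, r fell to 0.394, the lowest value on leaving out 1 mouse. Atf4 and Asns had r = -0.435 and rho = -0.405 (adjusted p = 0.213 and 0.172 by permutation), with 0.338 in males and -0.787 in females. The other 6 pairs did not pass, and for Hspa5 and Pdia4 r went from 0.525 to 0.231 without M10 and F4.

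**Figure D5:**
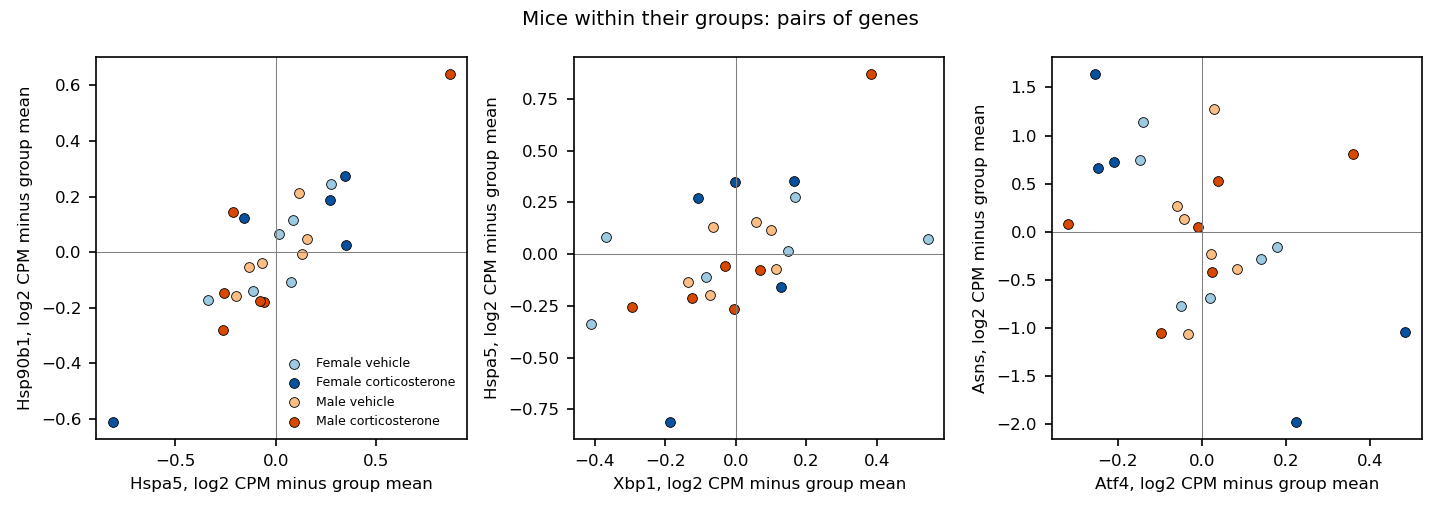
Log2 CPM minus the group mean for 3 pairs of genes, with 1 point per mouse, coloured by group. Hspa5 and Hsp90b1 lie along a rising line, with F4 at the lower and M10 at the upper end, Xbp1 and Hspa5 rise together more loosely, and Atf4 and Asns show no called relation.

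The tested genes whose levels were most like those of Hspa5 within groups were Manf (r = 0.936), Sdf2l1 (r = 0.892) and Hsp90b1 (r = 0.873) over 23 mice. For Asns they were Ppp2r1b (0.939), Ppm1m (0.936) and Pygb (0.929), and for Atf4 Psmd11 (0.857), Cipc (0.852) and Flcn (0.839). These values describe mice that share libraries and depth across genes. The promoter window of Sdf2l1 held none of the elements searched for, unlike those of Hspa5 and Hsp90b1. The part of such elements was not tested.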

How the data were processed

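The authors aligned read pairs with STAR 2.7.3a to mm10, counted those on 1 gene by strand with HTSeq 0.12.4, and deposited raw counts per gene and mouse. Versions are those of the submitters' processing notes. The 5 summary entries, 10.7% to 15.3% of read pairs, were left out. Names came from GENCODE M21, which matched 55480 of 55573 IDs.

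Genes with over 20 median-of-ratios normalized counts in at least 4 mice of 1 group were tested with edgeR 4.0.16 (quasi-likelihood test, TMM, 1 model of 4 group means, R 4.3.3) and adjusted by Benjamini-Hochberg over 13049 genes, with a threshold of 0.01. CPM used TMM library sizes, and log2 CPM for correlations a prior count of 1. Correlations were tested by 100000 permutations within groups, two-sided, adjusted over 9 pairs with a threshold of 0.05. Labels name the mice as separate samples. Replicates differed beyond sampling noise in every pair (chi-square over its degrees of freedom at least 15.0).

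The 10 genes and all lists were chosen with earlier results of these data known. Pathway genes named are the 4 called genes per list with the largest log2 fold change in either sex. For Atf4, Asns and Hspa5, the 3 genes with the highest within-group correlation are named. Alternatives were DESeq2 1.42.0, limma-voom 3.58.1 with sample quality weights, median-of-ratios scaling, other count filters, each sex alone, a replicate block, a log2 limit of 1, a prior count of 0.25 and leaving out each mouse. Leaving out mice by hepatocyte markers or by low alignment quality, and an adipocyte covariate, were added after the data had been seen. In a test on simulated data, with 200 of 13049 genes changed by 1 on the log2 scale, edgeR recovered 72.0% in males and 70.5% in females, with 0.69% and 0.704% of calls false. Each simulated gene had the same spread in every group and no outlying mice. These rates therefore do not cover groups of unequal spread, and say nothing about the calls in treated females.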

Additional observations from a re-analysis of the deposited data

Results flagged for a closer look

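In 4 of 40 groups of values (10 genes in 4 groups), 1 mouse lay far from the others by Dixon's criterion, where chance gives about 2. They were Trib3 in the vehicle-treated female F5 at 2.72 CPM, Dnajb9 in the vehicle-treated female F3 at 28.4 CPM, Hsp90b1 in the corticosterone-treated female F4 at 108 CPM and Hspa5 in the corticosterone-treated male M10 at 381 CPM. The response of Stc2 differed between the sexes by 2.60 on the log2 scale, males minus females, in edgeR's interaction test. Its mean vehicle level was 2.10 CPM in males and 7.26 CPM in females. Read pairs set aside for low alignment quality, which enter no comparison, had a median of 3496 in treated females and 1504 in treated males, and both medians lay above the highest vehicle-treated mouse of the same sex.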

How the results depend on the processing

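Over 50 results (10 genes in 5 comparisons) and 33 alternatives each, 1533 of 1650 values kept their direction and their side of the threshold, 49 lost the call, 28 gained it and 40 changed sign. Of the 10 genes, DESeq2 called 1 for the interaction and 5 between treated sexes, and limma-voom called 0 in males, 5 in females, 5 between treated sexes and 1 for the interaction. Without a filter, 0 passed in males and 0 in females. With each sex alone, 2 passed in males and 0 in females. Without the 5 mice rich in hepatocyte markers, 0 passed in males, 0 in females and 0 between treated sexes. Without F2, F6 and F10, 0 passed in females and 0 between treated sexes, and 1 passed between treated sexes with the adipocyte covariate. With a log2 limit of 1, 0 passed in males, 1 in females and 0 between vehicle-treated sexes. Leaving out 1 mouse gave 0 to 1 in males, 0 to 5 in females (5 without F4), 0 to 1 for the interaction (1 without F3, F4 or F8), 1 between vehicle-treated sexes and 2 to 7 between treated sexes (2 without F6, 7 without F4). The causes were not tested.

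Same-numbered mice of the 2 sexes are different animals, and their deviations correlated between -0.377 and 0.477 over 11 pairs, 7 of them over 0.1. The range was 0.0846 to 0.477 with vehicle and -0.377 to 0.242 with corticosterone. Mice of unlike number were not compared, so that whether the numbers mark a shared order or batch was not tested. With the replicate block, 0 of the 10 genes passed between vehicle-treated sexes, and between treated sexes Asns no longer passed (adjusted p = 0.0227, edgeR). No block could be fitted for corticosterone against vehicle, whose groups share no number.

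Signs changed only in values that had not passed. Ddit3 in females, at 0.00, was -0.00695 with DESeq2, -0.16 with limma-voom, -0.00713 with median-of-ratios scaling, -0.0143 with filterByExpr, -0.0359 without a filter, -0.0203 with females alone, -0.13 without the hepatocyte-rich mice, -0.0419 with the adipocyte covariate. Asns between vehicle-treated sexes was 0.0159 with limma-voom, 0.0350 without the hepatocyte-rich mice and 0.41 with the covariate. Without the hepatocyte-rich mice, Chac1 between vehicle-treated sexes was -0.0479 and Dnajb9 between treated sexes -0.00394. With the covariate, Dnajb9 was -0.12, Asns in males 0.0688 and Trib3 between vehicle-treated sexes 0.0606. Without F2, F6 and F10, Atf4 and Asns in females were 0.0436 and -0.46, the interactions of Atf4, Hspa5 and Dnajb9 were -0.0475, 0.00828 and -0.0467, and Dnajb9 between treated sexes was -0.13. Leave-one-out fits ran across 0 from -0.19 to 0.13 for Ddit3 and -0.27 to 0.28 for Chac1 in females, from -0.0987 to 0.0395 for Atf4 in males, from -0.42 to 0.25 for Asns, -0.0436 to 0.42 for Chac1 and -0.18 to 0.17 for Trib3 between vehicle-treated sexes, and from -0.0515 to 0.0877 for Dnajb9 between treated sexes. Without the 2 outermost mice, r was 0.231 for Hspa5 and Pdia4 and 0.0269 for Atf4 and Hspa5. Leave-one-out r ran from -0.491 to 0.00121 for Atf4 and Hspa5, -0.603 to -0.343 for Atf4 and Asns, -0.582 to -0.410 for Atf4 and Trib3, 0.0460 to 0.343 for Ddit3 and Trib3, -0.382 to -0.156 for Atf4 and Ddit3, 0.394 to 0.622 for Xbp1 and Hspa5, 0.794 to 0.915 for Hspa5 and Hsp90b1, 0.384 to 0.699 for Hspa5 and Pdia4, and 0.128 to 0.589 for Hspa5 and Dnajb9.

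Over all tested genes, 90 passed for the interaction, against 896 with DESeq2, 693 with limma-voom, 10 without a filter, 36 with the covariate, 3 without the hepatocyte-rich mice and 6 without F2, F6 and F10. In females 1748 passed, against 561 with females alone, 460 without the hepatocyte-rich mice and 130 without F2, F6 and F10. Between treated sexes 3043 passed, against 1024, 290 and 206 with the covariate and without these mice, and between vehicle-treated sexes 125, against 284 with DESeq2. A log2 limit of 1 left 982 genes in males, 732 in females, 40 for the interaction, 75 between vehicle-treated and 1014 between treated sexes. At this depth Trib3, Asns and Ddit3 lay above the level of 3 counts in every mouse.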
